A study of Mus musculus with 4 samples.

Results

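The genes described here are 9 that encode enzymes and a chaperone acting on collagen, chosen by name among the 54532 genes of a table of mouse RNA sequencing values. They are the lysyl oxidases Lox, Loxl1, Loxl2 and Loxl3, the lysyl hydroxylases Plod1 and Plod2, the prolyl 4-hydroxylase subunits P4ha1 and P4ha2, and the collagen chaperone Serpinh1. The RNA came from CB6F1 mouse bone marrow, which was digested without prior fractionation and grown in high-glucose DMEM with serum, and the labels call the cells MSCs. Both groups carry the term aGVHD in their titles. The R group (2 libraries) received a compound that the labels name only R, at a dose of 0.5 written in "um" and read here as micromolar, and the vehicle group (2 libraries) received DMSO. Treatment was given in vitro, and neither its duration nor the animals' age is stated in the labels. The labels do not say that replicates are separate animals or cultures, so each p-value measures only the spread between these libraries, which may be technical.

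Collagen chains are modified in the endoplasmic reticulum before they are secreted. Prolyl 4-hydroxylases hydroxylate prolines, which makes the triple helix stable at body temperature, and lysyl hydroxylases hydroxylate lysines, some of which then carry sugars or take part in crosslinks. The chaperone encoded by Serpinh1, also known as HSP47, binds the folded helix and escorts it out of the endoplasmic reticulum. Outside the cell, lysyl oxidases, which need copper, convert lysines of collagen and elastin to aldehydes that join neighbouring molecules. In bone marrow such matrix is laid down mainly by stromal and bone-forming cells.

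Between 16534440 and 18085183 reads per library were recovered from the deposited values. The library sizes implied by the same values were larger, from 17638814 in vehicle replicate 1 to 19298992 in R replicate 1. The label MSCs was checked against marker genes. Cxcl12, a chemokine of marrow stroma, was at 488 ± 37.2 FPKM with R against 505 ± 17.4 FPKM with DMSO, and Pdgfra, a stromal growth factor receptor, at 12.8 ± 2.94 and 14.2 ± 0.514 FPKM (SD, n = 2 libraries each). FPKM scales reads by gene length and library size, so levels of different genes can be set side by side. The 26 stromal markers summed to between 1063 and 1231 FPKM per library. Among them, Tcf21 was at 0 in every library, and Thy1 and Lepr had means under 1 FPKM. Macrophage RNA was abundant: 27 macrophage markers, none of them at 0 throughout, summed to 17536 and 13589 FPKM in the R libraries and to 25821 and 23137 FPKM in the vehicle libraries. Lyz2, a myeloid lysozyme, was at 7976 ± 1294 FPKM with R against 13554 ± 1435 FPKM with DMSO, and Ptprc, the leukocyte common antigen, at 8.57 ± 1.26 and 12.8 ± 1.495 FPKM (SD, n = 2 libraries each). The summed markers of neutrophils, of T and NK cells, of B cells, of erythroid and of endothelial cells each stayed at or below 15.6 FPKM, and their tested members Camp, Cd4, Cd79b, Ighm, Pecam1 and Cdh5 did not pass the test.

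The comparison of R with vehicle asked how transcripts differ between cells given the compound and cells given the solvent. Serpinh1 and Loxl3 had higher values in both R libraries than in either vehicle library, with means 1.53 and 1.36 times those of vehicle, and Loxl2 had lower values, at 0.767 times. The hydroxylase genes Plod1, Plod2, P4ha1 and P4ha2 had mean ratios from 0.978 to 1.02, with overlapping groups. None of the 9 genes passed the test across all genes, which was limma on log2(FPKM + 1) with Benjamini-Hochberg adjustment over the 12176 genes averaging 1 FPKM or more, at an adjusted p under 0.05. All 9 were among the genes tested. That test called 0.345% of all tested genes higher in R and 1.37% lower, 42 and 167 genes. The counts were 58 and 124 on the TPM scale, which gives every library the same sum, and 9 and 133 when libraries were centred on stromal markers. An unadjusted p under 0.05 was found for 2 of the 9 on the higher side (7.16% of all tested genes) and for 1 on the lower side (8.83%). The groups did not overlap for 4 of the 9 on the higher side (22.7% of all tested genes) and for 1 on the lower side (25.2%). The median log2 fold change of the 9 genes was 0.026, and that of all tested genes was 8.3e-05. In bulk RNA, fewer cells of a type and less RNA per cell cannot be told apart.

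**Figure D1:**
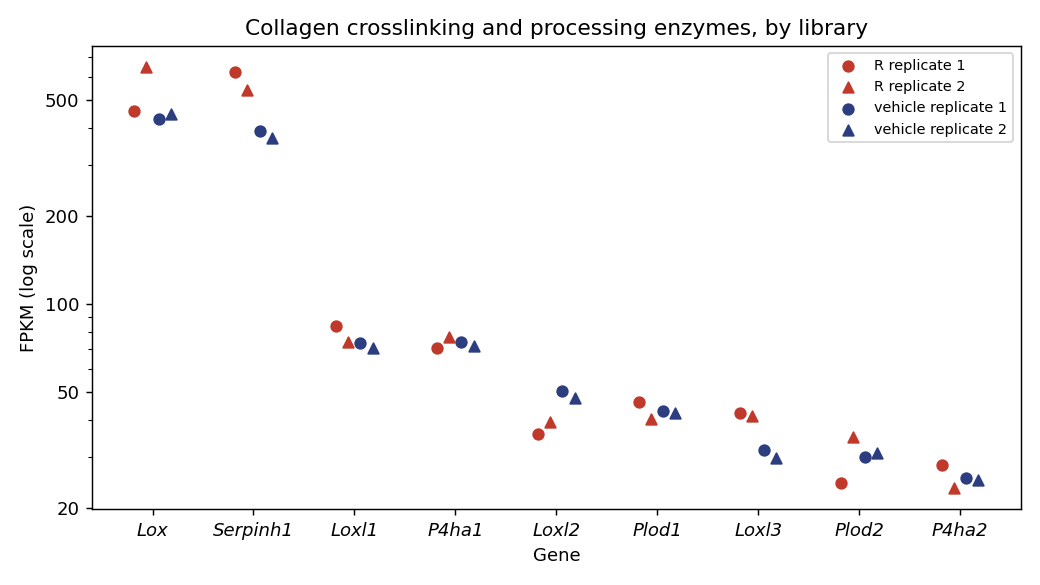
FPKM (log axis) of the 9 genes in each library, ordered by mean level; circles are replicate 1 and triangles replicate 2, red for R and blue for vehicle. Lox and Serpinh1 lie between 371 and 649 FPKM, while the other 7 lie between 23.4 and 84.3 FPKM; the red and blue points do not overlap for Lox, Serpinh1, Loxl1, Loxl3 and Loxl2, narrowly so for Lox and Loxl1.

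By level the genes fell into an upper pair and a lower 7. Lox averaged 496 FPKM over the 4 libraries and Serpinh1 483 FPKM, and both exceeded 99% of tested genes. The order of these 2 differed between libraries, since Serpinh1 was above Lox in R replicate 1 and below it in the other 3. Loxl1 (75.7 FPKM) and P4ha1 (73.4 FPKM) followed and also changed places between libraries. Loxl2 (43.3 FPKM), Plod1 (43.0 FPKM) and Loxl3 (36.2 FPKM) came next, and Plod2 (29.99 FPKM) and P4ha2 (25.4 FPKM) were lowest.

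Lox, the founding lysyl oxidase, was at 457 and 649 FPKM in R replicates 1 and 2 and at 429 and 447 FPKM in vehicle replicates 1 and 2. R replicate 2 stood above the other libraries, while R replicate 1 was close to vehicle. The log2 fold change was 0.31 (SE 0.22, 95% interval -0.22 to 0.85), with limma's Benjamini-Hochberg adjusted p = 0.554. Without R replicate 1 it was 0.57, and without R replicate 2 it was 0.063, so the size of the Lox difference depended on which R library was used. Loxl1, a relative needed for elastic fibres, was at 84.3 and 74.3 FPKM in R and at 73.6 and 70.6 FPKM in vehicle. Its lower R value lay just above the higher vehicle value. Its log2 fold change of 0.13 (SE 0.14, 95% interval -0.20 to 0.47) turned to -0.017 when libraries were centred on stromal markers and to -0.055 after a correction for gene length and GC content.

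Loxl2 and Loxl3 belong to the branch of the family with scavenger receptor domains, and their values lay in opposite directions. Loxl3 was at 42.2 and 41.3 FPKM in R and at 31.7 and 29.7 FPKM in vehicle. The R replicates were close to each other and both above vehicle, with a log2 fold change of 0.43 (SE 0.12, 95% interval 0.14 to 0.73; limma, unadjusted p = 0.0119, adjusted p = 0.164). Loxl2, which is known for acting on basement membrane collagen, was at 35.9 and 39.3 FPKM in R and at 50.5 and 47.6 FPKM in vehicle. Both R libraries were below both vehicle libraries, with a log2 fold change of -0.38 (SE 0.13, 95% interval -0.69 to -0.064; limma, unadjusted p = 0.0259, adjusted p = 0.236). Under 15 alternatives the estimate ranged from 0.28 to 0.57 for Loxl3 and from -0.53 to -0.25 for Loxl2. The ratio of Loxl3 to Loxl2 FPKM was 1.18 and 1.05 in the R libraries and 0.628 and 0.625 in the vehicle libraries. Loxl3 was therefore the more abundant of these 2 in both R libraries and the less abundant in both vehicle libraries. This ratio was looked at after the values were known and was not tested.

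Within the lysyl oxidase family, Lox made up most of the summed FPKM in every library. Its share was 73.3% and 80.1% in R and 72.8% and 74.6% in vehicle. The share of Loxl2 was 5.75% and 4.86% in R and 8.56% and 7.96% in vehicle, lower in both R libraries. The share of Loxl3 was 6.77% and 5.10% in R and 5.38% and 4.97% in vehicle, with overlapping groups. Loxl4, the remaining family member, was at 4.07 and 6.05 FPKM in R and at 4.28 and 4.03 FPKM in vehicle, which is at most 0.747% of the family. Lox (ENSMUSG00000024529) spans positions 52516067 to 52529867 of chromosome 18 in the GRCm38 annotation of GENCODE M21. Loxl1 (ENSMUSG00000032334) lies at 58287738 to 58313186 of chromosome 9, Loxl2 (ENSMUSG00000034205) at 69609068 to 69695834 of chromosome 14 and Loxl3 (ENSMUSG00000000693) at 83034173 to 83052562 of chromosome 6. 

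The lysyl hydroxylase genes showed no difference beyond the spread of the libraries. Plod1, whose product acts on lysines within the helix, was at 46.1 and 40.5 FPKM in R and at 42.9 and 42.3 FPKM in vehicle. The vehicle values lay between the R values, and the log2 fold change was 0.018 (SE 0.13, 95% interval -0.30 to 0.34; limma, adjusted p = 0.966). Plod2, whose product acts on the telopeptides where crosslinks form, was at 24.3 and 35.0 FPKM in R and at 29.9 and 30.8 FPKM in vehicle. The R replicates again lay on both sides of vehicle, with a log2 fold change of -0.053 (SE 0.19, 95% interval -0.52 to 0.41; limma, adjusted p = 0.925). Plod3, which also has glycosyltransferase activity, was at 57.5 ± 9.98 FPKM with R against 48.6 ± 2.84 FPKM with DMSO (SD, n = 2 libraries each), which missed the threshold. Plod2 made up 18.03% and 27.8% of the FPKM of these 3 genes in R and 24.2% and 25.7% in vehicle. The interval for Plod2 reaches from -0.52 to 0.41, so it does not show equal levels. Plod1 (ENSMUSG00000019055) lies at 147909753 to 147936767 of chromosome 4 and Plod2 (ENSMUSG00000032374) at 92542223 to 92608428 of chromosome 9.

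P4ha1 and P4ha2, catalytic subunits of prolyl 4-hydroxylase, also overlapped between the groups. P4ha1, the main catalytic subunit in most tissues, was at 70.5 and 77.1 FPKM in R and at 74.3 and 71.7 FPKM in vehicle, with a log2 fold change of 0.015 (SE 0.13, 95% interval -0.31 to 0.34; limma, adjusted p = 0.97). P4ha2, the second isoform, was at 28.02 and 23.4 FPKM in R and at 25.3 and 24.9 FPKM in vehicle, with a log2 fold change of 0.026 (SE 0.14, 95% interval -0.31 to 0.36; limma, adjusted p = 0.952). In both genes the vehicle values fell inside the range of the R values. P4hb, the disulfide isomerase that forms the other subunit of the enzyme, was at 364 ± 11.7 FPKM with R against 350.4 ± 0.313 FPKM with DMSO (SD, n = 2 libraries each). P4ha3, the least abundant catalytic isoform, was at 20.1 and 20.2 FPKM in R and at 14.96 and 12.9 FPKM in vehicle. Its groups did not overlap, and its log2 fold change was 0.50 (SE 0.13; limma, unadjusted p = 0.00772, adjusted p = 0.133). P4ha3 supplied 16.9% and 16.8% of the FPKM of the 3 catalytic isoforms in R and 13.0% and 11.8% in vehicle.

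Serpinh1 had the largest log2 fold change of the 9 genes in either direction. It was at 625 and 543 FPKM in R replicates 1 and 2 and at 391 and 371 FPKM in vehicle replicates 1 and 2, from 16249 to 29472 recovered reads per library. Both R libraries stood well above both vehicle libraries, and the gap between the groups exceeded the gap within each. The log2 fold change was 0.61 (SE 0.17, 95% interval 0.19 to 1.04; limma, unadjusted p = 0.0124, adjusted p = 0.169), which did not pass. Among 15 alternatives without a term for replicate number it passed in 5, with limma's adjusted p from 0.0219 to 0.9999 over the 15. It passed on the TPM scale (log2 fold change 0.75, limma adjusted p = 0.0372), where the median of all tested genes also moved, to 0.13. It also passed after quantile normalization (0.78, limma adjusted p = 0.0219), with a length correction (0.65, limma adjusted p = 0.0292) and with a length and GC correction (0.55, limma adjusted p = 0.0327). The remaining pass was without R replicate 2 (0.71). That fit rests on 1 R library, which is assumed to vary like vehicle. The lowest estimate, 0.46, came from centring libraries on stromal markers (limma, adjusted p = 0.415). In the same libraries the summed macrophage markers were lower in R, and their part in the Serpinh1 values was not tested.

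**Figure D2:**
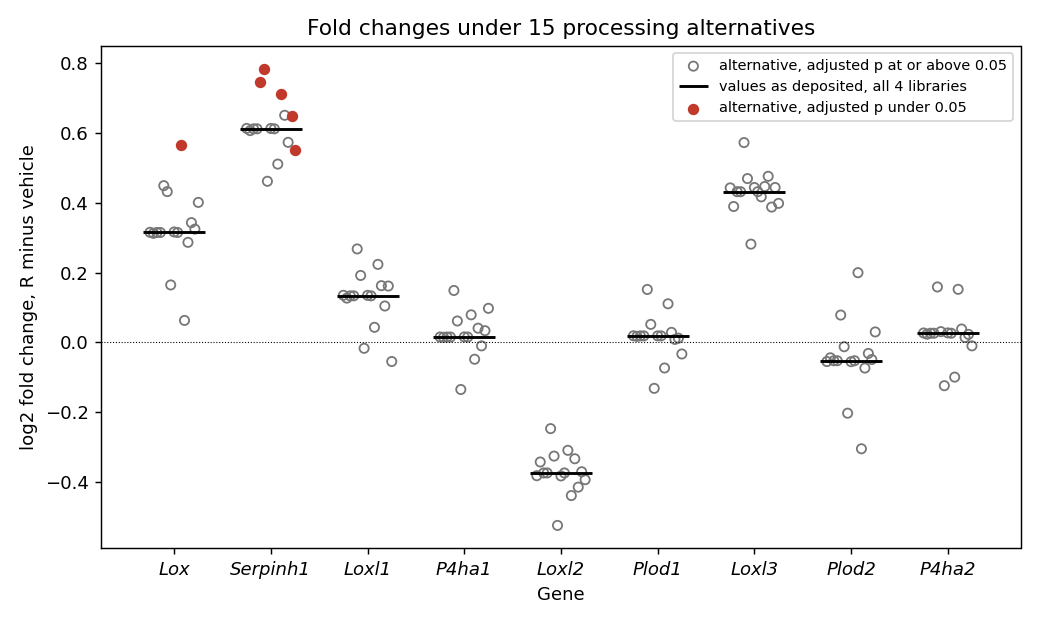
Log2 fold change, R minus vehicle, of each gene with the values as deposited (black bars) and under 15 alternatives of scaling, filter, test or library choice (circles; filled red where limma's adjusted p was under 0.05). Serpinh1 has 5 filled circles and Lox 1. The filled circle of Lox and 1 of those of Serpinh1 come from fits with 1 R library left. Loxl3 stays above 0 and Loxl2 below 0 in each alternative, and the 4 hydroxylase genes scatter around 0.

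RefSeq promoter sequences (GRCm38.p6, 250 bases before to 50 after the start) were held for 4 of the 9 genes, Serpinh1, P4ha1, P4ha2 and Plod1. Prolyl 4-hydroxylase genes are known targets of the hypoxia-inducible factors, whose binding sites contain the core ACGTG or GCGTG. Only the ACGTG form was searched, on both strands (ACGTG or CACGT). It is present in 6447 of 32851 promoters in the table, or 19.6%, and in 3 of these 4. The form GCGTG was neither counted nor marked, and it occurs in the Plod1, P4ha1 and P4ha2 windows. The windows of the 3 genes with ACGTG are shown, and that of Plod1, which lacks it, is not. In the comparison Serpinh1 was higher in both R libraries but did not pass the test, while P4ha1, P4ha2 and Plod1 overlapped. Capitals mark ACGTG or CACGT. The Serpinh1 window is chr7:99353190-99353489 on the minus strand, the P4ha1 window chr10:59323046-59323345 on the plus strand and the P4ha2 window chr11:54100674-54100973 on the plus strand.
Serpinh1: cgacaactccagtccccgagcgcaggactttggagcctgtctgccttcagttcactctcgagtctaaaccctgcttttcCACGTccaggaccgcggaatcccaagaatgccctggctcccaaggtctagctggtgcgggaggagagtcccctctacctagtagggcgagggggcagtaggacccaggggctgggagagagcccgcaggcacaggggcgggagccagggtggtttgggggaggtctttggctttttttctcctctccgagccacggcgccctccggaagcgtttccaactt
P4ha1: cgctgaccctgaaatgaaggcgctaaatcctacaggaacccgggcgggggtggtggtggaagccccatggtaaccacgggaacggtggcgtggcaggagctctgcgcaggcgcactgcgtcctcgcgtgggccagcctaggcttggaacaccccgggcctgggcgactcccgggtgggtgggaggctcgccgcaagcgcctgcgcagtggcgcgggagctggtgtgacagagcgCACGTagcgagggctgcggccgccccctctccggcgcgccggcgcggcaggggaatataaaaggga
P4ha2: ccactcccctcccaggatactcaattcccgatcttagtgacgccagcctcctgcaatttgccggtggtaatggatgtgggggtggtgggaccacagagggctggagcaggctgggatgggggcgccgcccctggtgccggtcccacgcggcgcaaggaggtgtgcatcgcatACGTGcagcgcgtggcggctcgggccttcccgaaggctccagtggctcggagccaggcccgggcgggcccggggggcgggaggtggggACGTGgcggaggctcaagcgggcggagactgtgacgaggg
The ACGTG form, on either strand, begins 171 bases before the start in Serpinh1 and 16 bases before the start in P4ha1. In P4ha2 it occurs 78 bases before and again 10 bases after the start. That start is the RefSeq one, and the whole P4ha2 window lies inside the GENCODE M21 span of the gene, which begins at 54100095. A match is a stretch of letters and no evidence of binding. Serpinh1 (ENSMUSG00000070436) spans 99345376 to 99353239 of chromosome 7, P4ha1 (ENSMUSG00000019916) 59323296 to 59373304 of chromosome 10 and P4ha2 (ENSMUSG00000018906) 54100095 to 54131665 of chromosome 11.

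Genes of the hypoxia response were read beside these hydroxylases. Of 20 tested, 0 passed the test in limma after adjustment, 5 had an unadjusted p under 0.05 on the lower side (8.83% of all tested genes), and the median log2 fold change was -0.12. Bnip3, a mitochondrial protein induced by low oxygen, was at 25.9 ± 2.90 FPKM with R against 42.7 ± 1.63 FPKM with DMSO (SD, n = 2 libraries each), with limma's adjusted p = 0.0749. Bnip3 passed with voom on recovered reads (limma, adjusted p = 0.0464). Its log2 fold change was -0.59 without R replicate 1 and -0.82 without R replicate 2, with 1 R library left in each. The groups did not overlap for 10 of the 20, all 10 on the lower side (25.2% of all tested genes). The glycolysis genes Hk2, Pgk1, Ldha, Aldoa and Eno1 overlapped between the groups. So did Slc16a3, a lactate transporter gene, at 24.3 ± 3.54 FPKM with R against 22.6 ± 0.146 FPKM with DMSO (SD, n = 2 libraries each).

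None of the other listed genes of collagen folding, processing and crosslinking passed the test. Of 28 listed genes 23 were tested, and limma with adjustment over all genes called 0 of them higher and 0 lower. An unadjusted p under 0.05 was found for 3 on the higher side and 1 on the lower side (7.16% and 8.83% of all tested genes). The estimate was positive for 21 of the 23 (6089 of 12176 tested genes), with a median of 0.21 on the log2 scale. When libraries were centred on stromal markers it was positive for 13 of the 23, against 3183 of all 12176. The groups did not overlap for 12 of the 23 on the higher side (22.7% of all tested genes). The 3 on the higher side were P4ha3, P3h4 and P3h3. P3h4, a partner of prolyl 3-hydroxylase family proteins, was at 72.9 and 61.2 FPKM in R and at 47.4 and 44.5 FPKM in vehicle, with a log2 fold change of 0.53 (SE 0.14; limma, adjusted p = 0.155). P3h4 passed with the length correction (limma, adjusted p = 0.0340). Without R replicate 2, with 1 R library left, its log2 fold change was 0.66. P3h3, a prolyl 3-hydroxylase family member, was at 36.2 ± 0.520 FPKM with R against 28.5 ± 2.17 FPKM with DMSO (SD, n = 2 libraries each). Tgm2, a transglutaminase that crosslinks matrix proteins by another chemistry, was the 1 on the lower side. It was at 18.6 and 15.2 FPKM in R and 22.0 and 21.4 FPKM in vehicle (limma, adjusted p = 0.304). Its log2 fold change was -0.35, and -0.48 without R replicate 1, with 1 R library left. Colgalt1, a collagen galactosyltransferase, was at 57.9 ± 4.64 FPKM with R against 51.7 ± 1.34 FPKM with DMSO (SD, n = 2 libraries each).

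**Figure D3:**
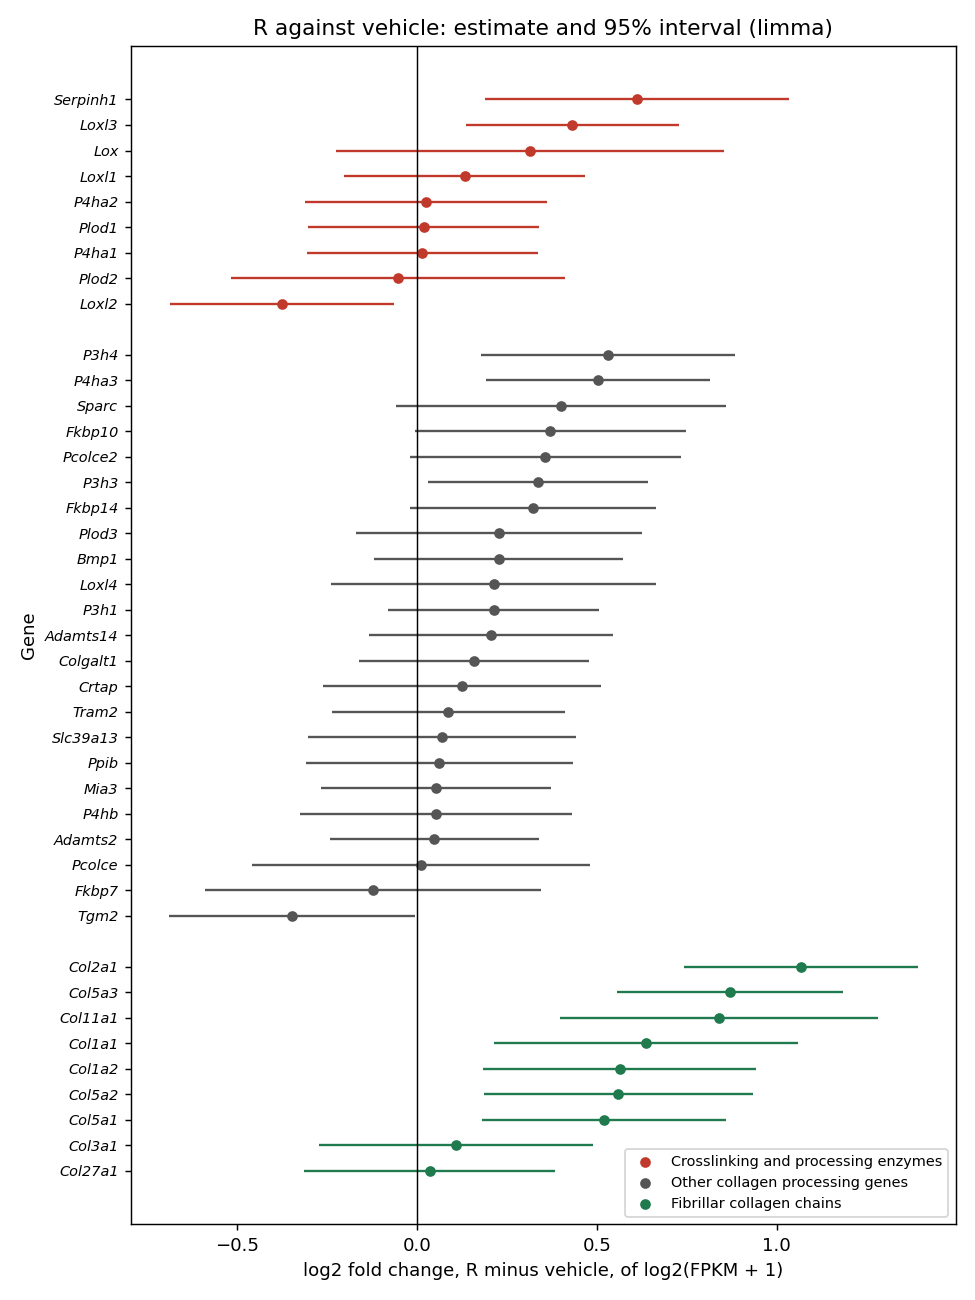
Log2 fold change, R minus vehicle, on the log2(FPKM + 1) scale with its 95% interval from limma for the 9 enzymes (red), the 23 other tested collagen processing genes (grey) and the 9 tested fibrillar collagen chains (green). Intervals of Serpinh1, Loxl3 and Loxl2 leave out 0 before adjustment over all genes, and 7 of the 9 collagen chains lie above 0.5.

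The substrates of these enzymes differed more between the groups than most of the enzymes did. Of 9 tested fibrillar collagen genes, 2 rose in R and 0 fell after adjustment over all genes (0.345% and 1.37% of all tested genes), and the median log2 fold change was 0.56. Those that rose were Col2a1, the cartilage collagen, from 25.5 ± 1.59 to 54.6 ± 4.55 FPKM, and Col5a3, a minor fibrillar chain, from 2.82 ± 0.186 to 5.996 ± 0.409 FPKM (SD, n = 2 libraries each). Their calls were lost without a filter on low values (limma, adjusted p = 0.123 and 0.180). They were also lost when libraries were centred on stromal markers (limma, adjusted p = 0.137 and 0.143) and without vehicle replicate 2. Col1a1, the main chain of collagen I, did not pass, at 852 and 795 FPKM in R and at 532 and 526 FPKM in vehicle (limma, adjusted p = 0.156). Elastin, the other lysyl oxidase substrate, was barely detected and fell below the filter of the test. Eln was at 0.0896 and 0.130 FPKM in R (14 and 19 recovered reads) and at 0.0140 and 0.0138 FPKM in vehicle (2 and 2 reads).

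The enzymes were also set against Col1a1 in the same library. Serpinh1 FPKM was 73.3% and 68.4% of Col1a1 FPKM in R and 73.5% and 70.5% in vehicle, so the groups overlapped. P4ha1 was at 8.27% and 9.71% of Col1a1 in R and at 14.0% and 13.6% in vehicle. Plod1 was at 5.41% and 5.09% in R and at 8.07% and 8.06% in vehicle. Both were lower in R relative to Col1a1, while their own FPKM overlapped. Loxl2 was at 4.21% and 4.95% in R and 9.48% and 9.06% in vehicle. Relative to Col1a1, 7 of the 9 genes were lower in both R libraries than in either vehicle library, with Lox and Serpinh1 as the exceptions. The same held for 85.2% of all tested genes, since Col1a1 itself had higher values in R, so the count of 7 says nothing particular about these enzymes. Lox was at 53.6% and 81.7% of Col1a1 in R and at 80.7% and 85.0% in vehicle. These ratios share a denominator, so they are not separate results, and they were not tested.

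**Figure D4:**
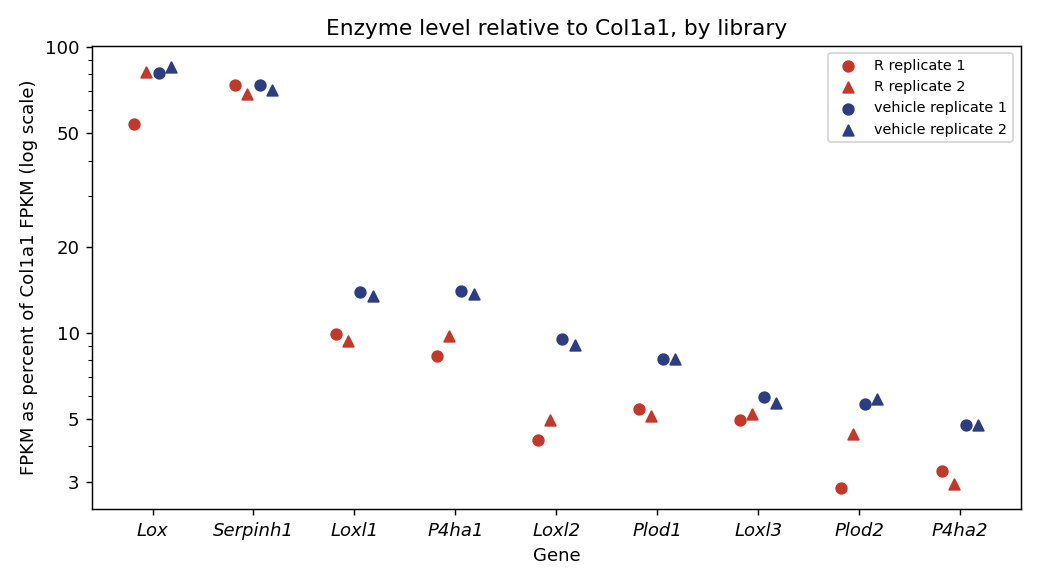
FPKM of each gene as a percentage of Col1a1 FPKM in the same library (log axis), with R in red and vehicle in blue. Serpinh1 stays between 68.4% and 73.5% in all 4 libraries, and 7 genes have both R points below both vehicle points, as do 85.2% of all tested genes.

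The R replicates differed from each other most for Lox and Plod2. R replicate 2 had 1.42 times the Lox value and 1.44 times the Plod2 value of R replicate 1, and 12.5% of tested genes had a larger gap between these libraries than either. These are also the 2 of the 9 genes with the lowest GC content in their longest transcript, 43.9% for Lox and 43.0% for Plod2. At the other end Loxl1 and Serpinh1, with 61.0% and 56.4% GC, were lower in R replicate 2, at 0.881 and 0.869 times replicate 1. The lowest ratio of the 9 was that of P4ha2, 0.834 at 52.1% GC. Plod1 was at 0.878 times (52.7% GC) and Loxl3 at 0.979 times (53.4% GC). Loxl2 and P4ha1, at 51.7% and 45.7% GC, were at 1.10 and 1.09 times. Over all tested genes the median log2 difference of R replicate 2 from R replicate 1 went from 0.16 in the lowest to -0.21 in the highest of 5 equal groups by GC content. Between the vehicle replicates these medians were 0.032 and -0.043. The difference also ran with gene length, from -0.31 in the shortest to 0.24 in the longest of 5 equal groups by length. Between the vehicle replicates the medians by length were -0.11 and 0.092. Plod1 and P4ha2, the longest of the 9 genes by exon length, went against this and were lower in R replicate 2. After correction for length and GC content together, a choice made after seeing the data, the log2 fold change was 0.40 for Lox (limma, adjusted p = 0.203) and 0.030 for Plod2 (limma, adjusted p = 0.923). The GENCODE M21 length used for Lox did not turn its FPKM into whole reads. It may therefore not be the length behind the deposited Lox values. The part of GC content and length in the Lox difference beyond this correction was not tested.

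**Figure D5:**
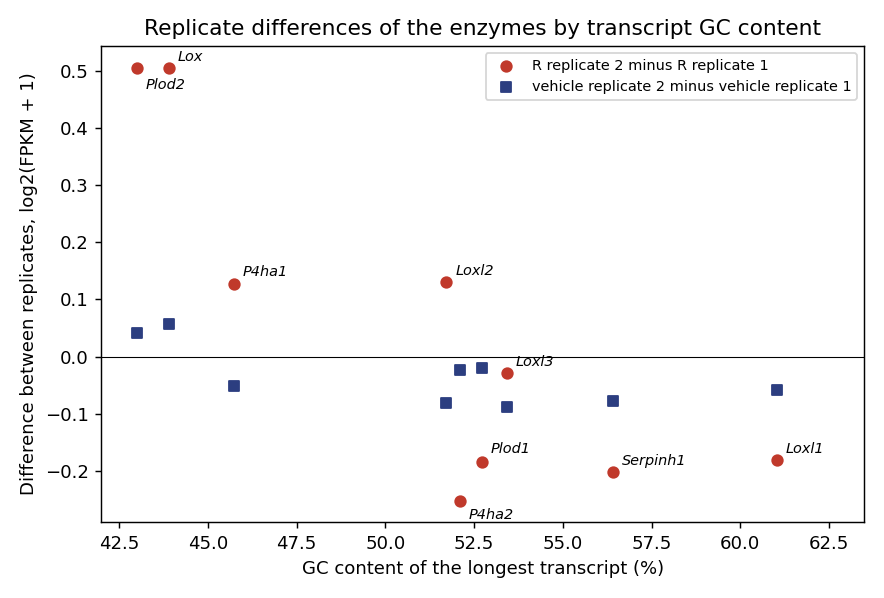
Difference in log2(FPKM + 1) between replicates of a group for each of the 9 genes, against the GC content of its longest transcript; red circles are R replicate 2 minus R replicate 1 and blue squares the same for vehicle. Plod2 and Lox, at 43.0% and 43.9% GC, lie at 0.51 and 0.50 in R, while the vehicle differences stay between -0.088 and 0.057.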

How the data were processed

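RNA sequencing values of total RNA were analysed for 4 mouse libraries, 2 per group, grouped by their titles. The deposited table gives FPKM for 54532 Ensembl genes in each library, per the file headers; 10 empty columns were not used. Per the submitters' processing notes, GRCm38, mm10 and edgeR 3.18.1 are named with no role. Which aligner, counter and annotation the authors used is not given in the sources used here. Symbols, exon lengths and coordinates (1-based) came from GENCODE M21, which matched 54495 identifiers. FPKM times length gave whole reads, within 0.02, for 96.3 to 96.4% of values above 0; for Lox it did not, so its read number is not given. FPKM sums differed, from 287360 to 345709.

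The groups were compared by limma 3.58.1 (R 4.3.3) on log2(FPKM + 1), with a variance trend, all 4 libraries, no further terms and Benjamini-Hochberg adjustment over the 12176 genes averaging 1 FPKM or more. This scale understates changes of low genes. Scripts were tested on simulated data. The 9 genes, the lists (collagen processing, fibrillar collagens with elastin, hypoxia response, cell type markers) and the tests were chosen with earlier results of these data known. Named are all 9 genes, called genes of each list or else those with the smallest p in each direction, fixed relatives and cell checks. P3h4, P3h3, Col1a1, Eln, Thy1, Lepr and 5 glycolysis genes were named after their values were seen. Alternatives covered pseudocount, filter, scaling, voom on recovered reads (unrounded where not whole), the variance trend, a replicate block, each library left out, and, added after seeing the data, loess corrections (span 0.5) for length and for length with GC content.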

Additional observations from a re-analysis of the deposited data

How the results depend on the processing

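Over all tested genes 42 were higher and 167 lower in R. These counts were 0 and 0 without a filter on low values (limma, 1263 higher and 1504 lower at an unadjusted p under 0.05), 85 higher with voom, 9 higher when centred on stromal markers, 222 and 331 with the length correction, and 175 and 361 with the length and GC correction. On the TPM scale they were 58 and 124, and after quantile normalization 62 and 185, of 12176 tested genes. Leaving out 1 library each gave 96 to 438 higher and 193 to 665 lower. Of the 9 genes 0 were called. The count on the higher side was 1 on the TPM scale, after quantile normalization and with each correction, and 0 to 1 with 1 library left out; the count on the lower side was 0 in each alternative, so 0 to 0 with 1 library left out. Of the other processing genes 1 was called higher after quantile normalization and 1 with the length correction, and 0 to 2 were called higher and 0 to 1 lower with 1 library left out. The median log2 fold change of the 9 genes, 0.026, was 0.16 on the TPM scale and -0.12 when centred on stromal markers, where the median of all tested genes was 0.13 and -0.15.

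With replicate number as a block, 891 genes were higher and 1009 lower. The block leaves little spread within the 4 libraries to measure, so these p-values rest largely on variance pooled over genes. The 9 genes then had 2 called higher, Loxl3 (adjusted p = 0.0267) and Serpinh1 (adjusted p = 0.0420), and the other processing genes 2, P3h4 and P4ha3 (limma, adjusted p = 0.00732 and 0.00429). Bnip3, Pdgfrb, Ptprc and Cd79b passed as well. Deviations of same-numbered libraries correlated at 0.35 over tested genes. The labels do not say what a number shares, so whether same-numbered libraries are paired is not known.

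Some single-gene estimates turned direction. When centred on stromal markers the log2 fold changes were -0.017 for Loxl1, -0.13 for Plod1, -0.14 for P4ha1, -0.12 for P4ha2, -0.098 for P4hb, -0.059 for Slc16a3 and -0.12 for Cdh5. With the length and GC correction they were -0.055 for Loxl1, -0.034 for Plod1, 0.030 for Plod2, -0.010 for P4ha2 and -0.014 for Slc16a3. On the TPM scale they were 0.078 for Plod2 and 0.083 for Cxcl12, and after quantile normalization 0.12 for Cxcl12. With 1 library left out, estimates that turned ranged from -0.074 to 0.11 for Plod1, -0.31 to 0.20 for Plod2, -0.049 to 0.079 for P4ha1, -0.10 to 0.15 for P4ha2, -0.052 to 0.23 for Slc16a3, -0.13 to 0.027 for Cxcl12, -0.38 to 0.059 for Pdgfra, -0.31 to 0.37 for Cdh5 and -0.024 to 0.45 for Loxl4. A group left with 1 library is assumed to vary like the other. The cause was not tested. The calls of all 4 macrophage markers were lost without the filter on low values. Those of Itgam and Ctss were also lost with vehicle replicate 1 left out, and that of Ctss also with vehicle replicate 2 left out. Itgam, Ctss and Ly86 lost theirs when centred on stromal markers (limma, adjusted p = 0.0704, 0.106 and 0.0783), and Itgam on the TPM scale (0.0676). When centred, the log2 fold changes of these 3 were further from 0, at -1.05, -1.45 and -1.26 against -0.90, -1.30 and -1.11. Their SEs were larger, at 0.16, 0.26 and 0.21 against 0.13, 0.18 and 0.16. Lyz2 and Ptprc passed with the length correction (0.0411 and 0.0369) and with the length and GC correction (0.0459 and 0.0472).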

Other observations

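Pdgfrb, the receptor by which perivascular stromal cells respond to PDGF, had the smallest p among 21 tested stromal markers, at 64.6 ± 6.13 FPKM with R against 42.3 ± 2.71 FPKM with DMSO (SD, n = 2 libraries each), which missed the threshold (limma, Benjamini-Hochberg adjusted p = 0.112). It passed with the length correction (limma, adjusted p = 0.0412). Without R replicate 1, with 1 R library left, its log2 fold change was 0.69. Of these markers 0 were called by limma after adjustment, 5 had an unadjusted p under 0.05 on the higher side (7.16% of all tested genes), and the median log2 fold change was 0.057. Alcam, an adhesion molecule, had the smallest p on the lower side, at 6.53 ± 0.920 FPKM with R against 7.96 ± 0.518 FPKM with DMSO (SD, n = 2 libraries each). Of 26 tested macrophage markers 4 fell (1.37% of all tested genes), with a median log2 fold change of -0.56. These were Fcgr1, Ctss, Ly86 and Itgam, which encode an IgG receptor, a lysosomal protease, the secreted protein MD-1 and an integrin chain, with log2 fold changes of -1.90, -1.30, -1.11 and -0.90. The estimate was below 0 for 24 of the 26 and above 0 for 2 (6087 and 6089 of 12176 tested genes). For 14 an unadjusted p under 0.05 was found on the lower side (limma, 8.83% of all tested genes), and for 0 on the higher side. Groups did not overlap for 20 on the lower side (25.2% of all tested genes) and for 1 on the higher side (22.7%).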
